A study of Homo sapiens with 8 samples.

Results

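The genes described here are 54 mitotic (G2/M) genes, listed by symbol for their known roles. They are cyclin B and CDK1 control genes, mitotic kinases, spindle checkpoint, kinetochore, kinesin, spindle and cytokinesis genes. The list was drawn up with earlier results of these data known. All 54 were present among the 25192 gene symbols measured, and all 54 had enough counts to be tested in both cell lines. The study asked how depletion of PrxII, the peroxiredoxin encoded by PRDX2, changes the transcriptome of colorectal cancer cells with truncated APC. HT29 cells, grown in McCoy's 5A medium, and SW480 cells, grown in RPMI1840 medium, were transfected with control siRNA (siCon) or with siRNA against PRDX2 (siPrdx2), and total RNA was taken after 36 h for mRNA sequencing. There were 2 libraries in each of the 4 groups, and both lines are established human colorectal cancer lines that carry truncated APC in every group. The labels speak of duplicates without saying whether they were separate transfections, so the p-values measure only the spread between these libraries. Depletion was transient and rests on siRNA, and the labels name no duplex.

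Entry into mitosis is driven by cyclin B bound to CDK1, and exit begins when the anaphase-promoting complex with its activator CDC20 marks cyclin B and securin for destruction. The messages of these proteins accumulate late in the cell cycle, from S phase to mitosis, and are low in G1. Many of their promoters carry a cell cycle genes homology region (CHR), through which the DREAM complex represses them in resting or G1 cells and MYB-MuvB and FOXM1 activate them in G2.

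The promoters of several of these genes are shown because the CHR is the sequence they share. RefSeq promoter windows on GRCh38.p14, from 250 bases before to 50 bases after each gene start, were found for 45 of the 54 genes, 55 windows in all, and the other 9 genes (FOXM1, AURKA, PBK, TTK, BUB3, UBE2C, BIRC5, RACGAP1 and TPX2) had none. The first set of 7 belongs to genes that fell in HT29 cells. Each line gives 30 bases, 5′ to 3′ in the direction of the gene and all before its start, with 1 copy of the CHR in capitals; the HMMR and ANLN lines hold a second copy next to it in lower case.
CCNB2 (chr15:59105105-59105134, plus strand): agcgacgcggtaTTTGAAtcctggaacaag
PLK1 (chr16:23678848-23678877, plus strand): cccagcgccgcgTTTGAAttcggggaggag
CDC20 (chr1:43358904-43358933, plus strand): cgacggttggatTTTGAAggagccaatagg
HMMR (chr5:163460592-163460621, plus strand): aatgtggggagaTTTGAAtttgaaaccggt
ANLN (chr7:36389830-36389859, plus strand): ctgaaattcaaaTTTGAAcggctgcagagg
GTSE1 (chr22:46296832-46296861, plus strand): ctcggagcccttTTCAAAccgaccaatcgg
PRC1 (chr15:90994538-90994567, minus strand): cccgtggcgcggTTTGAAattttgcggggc
The second set of 3 belongs to genes that did not pass the test in HT29 cells.
MKI67 (chr10:128126435-128126464, minus strand): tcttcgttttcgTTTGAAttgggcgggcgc
ESPL1 (chr12:53268256-53268285, plus strand): cagccgcggataTTTGAAaggagggtctgg
KIF11 (chr10:92593090-92593119, plus strand): ctctgtctctttTTCAAAttgaggcgccga
The search took TTTGAA and TTCGAA on both strands (TTCAAA is TTTGAA on the other strand), allowed overlapping matches and counted a window once however many copies it held. A CHR was found in 38 of the 55 windows (69.1%), against 16.4% of all 35116 RefSeq windows of this length and 4 of 57 windows (7.0%) of G1/S and DNA replication genes. In the last 50 bases before the start, 23 of the 55 windows (41.8%) held one, against 2.7% of all windows. The CCAAT box, searched as CCAAT and ATTGG, was in 42 windows (76.4%). It was in 34.6% of all windows and in 33 of the 57 G1/S windows (57.9%). Both motifs were held by 33 windows (60.0%) of the mitotic genes, against 6.4% of all windows and 5.3% of the G1/S windows. A match is a description of the letters and not of binding.

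Expected counts per library summed to between 8857442 and 10164137, so that 3 counts correspond to 0.295 to 0.339 CPM (counts scaled to library size with edgeR's TMM factors), which covers counting error only. PRDX2 itself measured 148 and 154 CPM in the HT29 controls and 82.4 and 83.2 CPM with PrxII siRNA. In SW480 cells it measured 209 and 246 CPM in the controls and at 69.5 and 70.7 CPM with PrxII siRNA. The libraries do not overlap in either line, and the fall was larger in SW480 cells (-1.70 on the log2 scale) than in HT29 cells (-0.87), a difference of 0.84 (adjusted p = 0.0128). Epithelial markers were high in all 8 libraries, with a summed level of 15499 to 17042 TPM (RSEM's value per transcript length, scaled to the same total in each library) in HT29 and 9874 to 10926 TPM in SW480 cells, whereas fibroblast and leukocyte markers summed to at most 10.4 and 27.9 TPM, with PTPRC and DCN at 0 in every library. In HT29 cells the epithelial sum was lower in both PrxII siRNA libraries (15579 and 15499 TPM) than in the controls (16932 and 17042 TPM), with 3 of the 7 markers lower and CDX2 higher by edgeR, and its part in the results below was not tested. The first SW480 control library stood apart from its duplicate: chi-square divided by degrees of freedom reached 11 for this pair and 1.41 to 2.1 for the other 3 duplicate pairs, and their log2 ratio followed the GC content of the transcript (Spearman's rho -0.71 across genes). Every SW480 value below rests in part on that library, and counts or medians are given with and without it and after a correction for GC content.

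In HT29 cells most of the 54 mitotic genes fell by a modest amount after PrxII depletion. The summed level of the 54 genes was 7833 and 7752 CPM in the control libraries and 6630 and 6569 CPM with PrxII siRNA. By the quasi-likelihood test of edgeR, adjusted over 12961 genes by the Benjamini-Hochberg method, 35 of the 54 were lower at an adjusted p under 0.05, and none was higher, with 0 higher and 42 lower at an unadjusted p under 0.05. The background was 9.82% of all genes lower and 7.76% higher. DESeq2 called 29 lower and 0 higher, against 4.29% of all genes lower. The median log2 fold change of the 54 genes was -0.22, against 0.00 over all genes, and 53 of the 54 fold changes lay below 0. For 49 genes the PrxII siRNA libraries were both lower than either control (28.7% of all genes did so), for NDC80 alone both were higher (28.3% of all genes), and the groups overlapped for FOXM1, MELK, NUF2 and MKI67. BIRC5 and PTTG1 were picked by the study as falling in these HT29 libraries, so their place in the count is not independent evidence of its direction. In bulk RNA, fewer cells in G2 or mitosis and less of each message per cell cannot be told apart.

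**Figure D1:**
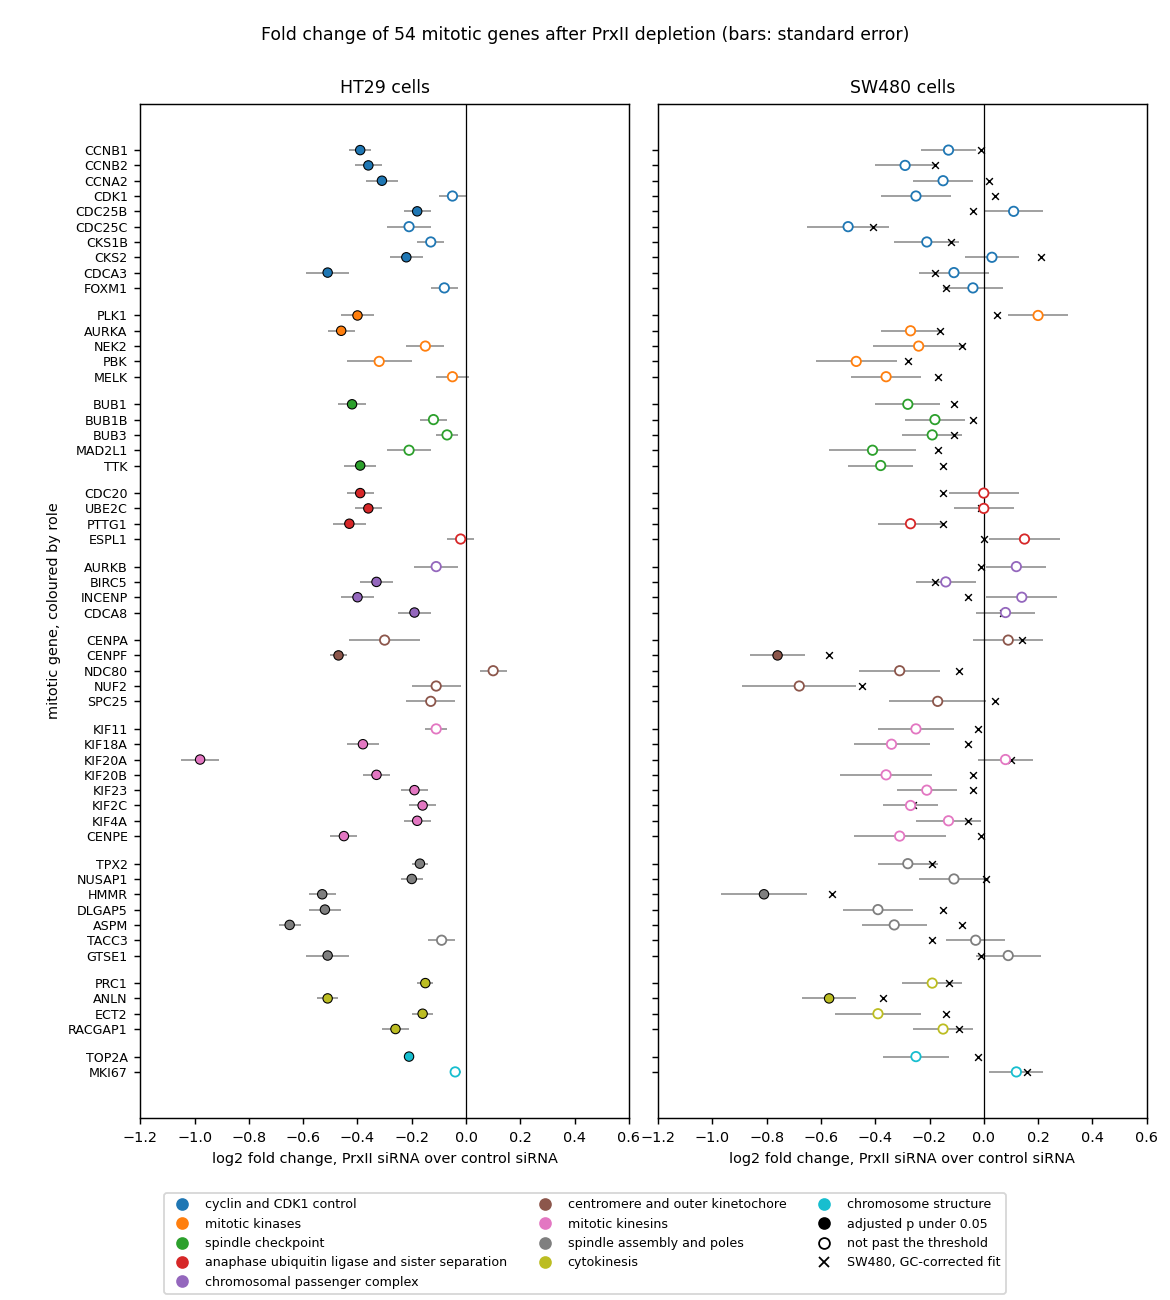
Log2 fold change, PrxII siRNA over control siRNA (x axis), of the 54 mitotic genes grouped by role (y axis) in HT29 cells (left) and SW480 cells (right). Points are edgeR estimates and bars their standard errors, filled points passed an adjusted p of 0.05 (35 genes in HT29, 3 in SW480), and crosses give the GC-corrected estimate in SW480 cells. All HT29 points but NDC80 lie left of 0, and KIF20A lies farthest left in HT29 but right of 0 in SW480 cells.

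The cyclins fell together while their kinase did not pass the test. CCNB1, the main mitotic cyclin, was at 205 and 221 CPM in the HT29 controls and at 164 and 161 CPM with PrxII siRNA. The groups do not overlap, and the log2 fold change was -0.39 (SE 0.04, adjusted p = 5.65e-06). CCNB2, the second B-type cyclin, went from 156 and 156 to 127 and 116 CPM (log2 fold change -0.36, SE 0.05, adjusted p = 6.01e-05). CCNA2, the A-type cyclin of S and G2 phase, went from 116 and 115 to 99.7 and 86.9 CPM (log2 fold change -0.31, SE 0.06, adjusted p = 0.00119). Both PrxII siRNA libraries were again below both controls for these cyclins. CDK1, the catalytic partner of the B-type cyclins, was at 128 and 126 CPM in the controls and at 122 and 123 CPM with PrxII siRNA, a log2 fold change of -0.05 (SE 0.05, adjusted p = 0.501). Of the 10 genes of cyclin and CDK1 control, 6 fell and none rose, with a median log2 fold change of -0.22. CDCA3, a trigger of mitotic entry, fell most of them (33.6 and 35.2 to 23.5 and 24.7 CPM, log2 fold change -0.51, adjusted p = 0.000324), and the phosphatase gene CDC25B and the CDK-binding subunit CKS2 fell by 0.18 and 0.22 on the log2 scale. CDC25C, the phosphatase that activates CDK1, was at 30 and 31.5 CPM and at 26.8 and 26.2 CPM, which did not pass (log2 fold change -0.21, adjusted p = 0.0904). FOXM1, a transcription factor of G2 genes, was at 170 and 160 CPM in the controls and at 151 and 162 CPM with PrxII siRNA, so that the groups overlap (log2 fold change -0.08, SE 0.05, adjusted p = 0.294).

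Among the mitotic kinases, PLK1 and AURKA fell, and NEK2, PBK and MELK did not pass the test. PLK1, which acts in mitotic entry, spindle assembly and cytokinesis, was at 113 and 129 CPM in the HT29 controls and at 87.7 and 94.8 CPM with PrxII siRNA (log2 fold change -0.40, SE 0.06, adjusted p = 0.000163). AURKA, the spindle pole kinase, went from 121 and 124 to 86.7 and 90.5 CPM (log2 fold change -0.46, SE 0.05, adjusted p = 3.05e-06). Neither gene showed overlap between the groups. The fold changes of the other 3 kinases were -0.15, -0.32 and -0.05 on the log2 scale, with adjusted p-values of 0.17, 0.0851 and 0.579.

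The spindle checkpoint holds anaphase until all kinetochores are attached. Its kinase gene BUB1 fell from 131 and 137 to 99.9 and 99.4 CPM (log2 fold change -0.42, SE 0.05, adjusted p = 6.78e-06), and the kinase gene TTK fell from 57.1 and 57.0 to 43.0 and 44.2 CPM (log2 fold change -0.39, adjusted p = 0.000282). MAD2L1, the MAD2 protein that inhibits CDC20, was at 51.0 and 54.7 CPM in the controls and at 49.3 and 42.1 CPM with PrxII siRNA, with no call (log2 fold change -0.21, SE 0.08, adjusted p = 0.0716). BUB1B and BUB3 were at log2 fold changes of -0.12 and -0.07, which did not pass either. Thus 2 of the 5 checkpoint genes fell.

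Of the 4 genes of the anaphase ubiquitin ligase and sister separation, 3 fell. CDC20, the activator of the ligase, went from 118 and 123 to 88.9 and 95.8 CPM in HT29 cells (log2 fold change -0.39, SE 0.05, adjusted p = 4.18e-05). UBE2C, its ubiquitin-conjugating enzyme, went from 109 and 111 to 84.6 and 86.7 CPM (log2 fold change -0.36, SE 0.05, adjusted p = 4.47e-05). PTTG1, the securin that the ligase destroys, went from 61.9 and 59.2 to 46.1 and 43.5 CPM (log2 fold change -0.43, SE 0.06, adjusted p = 0.000112). All 3 genes had both PrxII siRNA libraries below both controls. PTTG1 has the near-identical copies PTTG2 and PTTG3P, which held 17 to 66 counts per library, so a few of its reads may be split among them. ESPL1, the separase that securin inhibits, was at 84.0 and 84.3 CPM and at 83.2 and 82.6 CPM, a log2 fold change of -0.02 (SE 0.05, adjusted p = 0.82).

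The chromosomal passenger complex places Aurora B at centromeres and the midzone. BIRC5 (survivin) fell from 122 and 110 to 91.3 and 93.2 CPM (log2 fold change -0.33, SE 0.06, adjusted p = 0.000407), and its scaffold INCENP fell from 81.5 and 88.3 to 61.3 and 67.2 CPM (log2 fold change -0.40, adjusted p = 0.000159). CDCA8 (borealin) also fell, by 0.19 on the log2 scale (adjusted p = 0.0236). The kinase subunit AURKB was at 35.5 and 32.3 CPM in the controls and at 31.0 and 31.8 CPM with PrxII siRNA and did not pass (log2 fold change -0.11, SE 0.08, adjusted p = 0.375).

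Of the 5 centromere and outer kinetochore genes, 1 fell, and the median log2 fold change was -0.13. CENPF, a large kinetochore and nuclear matrix protein of G2 cells, fell from 437 and 432 to 321 and 307 CPM (log2 fold change -0.47, SE 0.03, adjusted p = 1.10e-08). NDC80, the microtubule-binding core of the outer kinetochore, was at 95.2 and 97.2 CPM in the HT29 controls and at 108 and 98.7 CPM with PrxII siRNA (log2 fold change 0.10, SE 0.05, adjusted p = 0.201). It had the only fold change above 0 among the 54 genes. CENPA, the centromeric histone H3 variant, was at 16.3 and 21.1 CPM and at 15.9 and 14.3 CPM, with a wide spread between the controls (log2 fold change -0.30, SE 0.13, adjusted p = 0.125). The NDC80 partners NUF2 and SPC25 were at log2 fold changes of -0.11 and -0.13 without a call.

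Of the 8 kinesin motors, 7 fell, and KIF20A fell most of all 54 genes. KIF20A (chromosome 5, 137514408 to 137523412 of GRCh37, plus strand), the midzone kinesin MKLP2 needed for cytokinesis, was at 58.3 and 55.7 CPM in the HT29 controls and at 28.9 and 29.1 CPM with PrxII siRNA. The level fell by 49.1%, a log2 fold change of -0.98 (SE 0.07, adjusted p = 2.34e-08). CENPE, the kinesin that carries chromosomes to the spindle equator, went from 126 and 123 to 93.5 and 87.7 CPM (log2 fold change -0.45, adjusted p = 5.28e-06). KIF18A, which shortens kinetochore microtubules, and KIF20B fell by 0.38 and 0.33, and KIF23, KIF2C and KIF4A by 0.19, 0.16 and 0.18 on the log2 scale. The adjusted p-values of these 5 lay between 0.000134 and 0.029. KIF4A has a near-identical copy, KIF4B, which held 174 to 282 counts per library, and its value is therefore uncertain. KIF11, the Eg5 motor that separates the poles, was at 160 and 156 CPM and at 145 and 148 CPM, which did not pass (log2 fold change -0.11, SE 0.04, adjusted p = 0.0875).

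The spindle assembly and pole genes had the lowest median, -0.51 over 7 genes, of which 6 fell. ASPM, a spindle pole protein, was at 191 and 189 CPM in the HT29 controls and at 119 and 123 CPM with PrxII siRNA (log2 fold change -0.65, SE 0.04, adjusted p = 1.10e-08). HMMR, a microtubule-associated hyaluronan receptor, went from 93.7 and 90.6 to 64.8 and 62.7 CPM (log2 fold change -0.53, SE 0.05, adjusted p = 1.63e-06). TPX2, the activator of Aurora A, went from 403 and 387 to 357 and 347 CPM (log2 fold change -0.17, SE 0.03, adjusted p = 0.00123). ASPM and HMMR had the largest falls of the 54 genes after KIF20A, and none of these 3 genes showed overlap between the groups. DLGAP5 and GTSE1 fell by 0.52 and 0.51, and NUSAP1 by 0.20 on the log2 scale, whereas TACC3 was at -0.09 without a call (adjusted p = 0.207).

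All 4 cytokinesis genes fell. ANLN (anillin, the scaffold of the contractile ring) was at 209 and 204 CPM in the HT29 controls and at 144 and 146 CPM with PrxII siRNA (log2 fold change -0.51, SE 0.04, adjusted p = 9.86e-08). PRC1, which bundles midzone microtubules, went from 289 and 279 to 254 and 258 CPM (log2 fold change -0.15, SE 0.03, adjusted p = 0.00584). RACGAP1 and ECT2, which activate RhoA at the midzone, fell by 0.26 and 0.16 on the log2 scale, RACGAP1 with a near-identical copy, RACGAP1P, at 60 to 91 counts per library. Of the 2 chromosome structure genes, TOP2A (DNA topoisomerase 2-alpha) fell from 722 and 713 to 618 and 619 CPM (log2 fold change -0.21, SE 0.02, adjusted p = 2.98e-06). MKI67, the antigen of the proliferation marker Ki-67, was at 696 and 675 CPM and at 675 and 663 CPM, so that the groups meet at 675 CPM (log2 fold change -0.04, SE 0.02, adjusted p = 0.358).

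**Figure D2:**
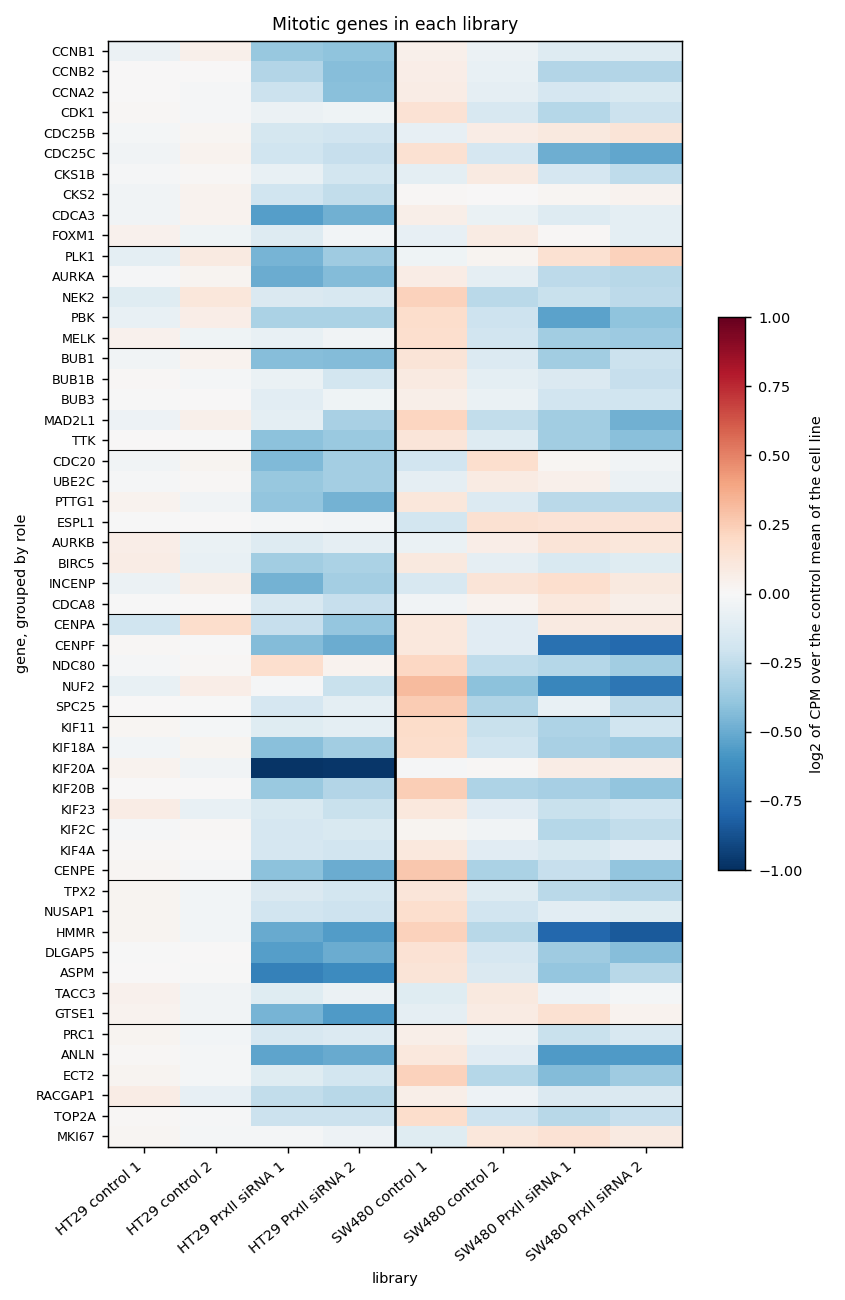
Each of the 54 genes (rows, grouped by role with lines between roles) in each of the 8 libraries (columns), as log2 of its CPM over the mean of the 2 control libraries of the same line; blue is lower and red higher, and KIF20A in HT29 cells reaches the end of the scale. The HT29 control columns are near white and both HT29 PrxII siRNA columns mostly blue, while the first SW480 control column is red for many genes.

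The HT29 counts rest on duplicates that lay close together, with a biological coefficient of variation of 0.0249. When 1 library was left out in turn, the median log2 fold change of the 54 genes lay between -0.25 and -0.21. In 1 fit of all 8 libraries, where the coefficient of variation was 0.0723, 9 were lower, against 0.670% of all genes. With limma on log2(TPM + 1), where the median of all genes moved to 0.06 and the calls over all genes split into 1252 higher and 548 lower (1006 and 1273 with edgeR), 25 of the 54 were lower and none higher. CCNA2, CDC25C, CDCA3, BUB1B, FOXM1, KIF20A, KIF4A, NUSAP1, PLK1, RACGAP1 and TACC3 overlap another measured gene on GRCh37. Overlapping genes were matched by current symbol only, so any measured under an older symbol would be missed. The library kit did not mark the strand, so reads of the overlapping stretches cannot be assigned with certainty.

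The fold changes were also set out by the presence of a CHR, as a description without a test. Among the 45 genes with a promoter window, the 35 with a CHR had a median of -0.21 on the log2 scale in HT29 cells (range -0.65 to 0.10), and 23 of them fell. The 10 without a CHR in the window had a median of -0.24 (range -0.98 to -0.05), and 6 of them fell. MKI67, ESPL1 and KIF11, printed above with a CHR just before the start, were at -0.04, -0.02 and -0.11. HMMR and ANLN, which hold 2 adjoining copies at a like distance, were at -0.53 and -0.51. MKI67 also holds 2 copies, at 29 and 47 bases before the start.

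Beside the 54 genes, 107 further genes were examined. They are other mitotic genes and 13 genes of the DREAM and MYB-MuvB list, with CDKN1A, described in the next paragraph. In HT29 cells 26 of the 107 fell and 7 rose, with a median log2 fold change of -0.03. Over all genes, 9.82% were lower and 7.76% higher, the background for each list below. The fall was densest among 19 other spindle and cytokinesis genes, of which 13 fell and none rose (median -0.24), among them TROAP (-0.66, adjusted p = 8.84e-06), DEPDC1 (-0.54, adjusted p = 4.41e-05) and SPAG5 (-0.48, adjusted p = 1.75e-06). Of 33 other kinetochore and centromere genes, 6 fell and 1 rose (median 0.00), with CASC5, the kinetochore scaffold, at -0.36 and DSN1 at 0.27. Among 19 condensin and cohesin genes, 3 fell and 2 rose (median -0.01), PDS5B at -0.21 and CDCA5 (sororin) at 0.20. Of 15 subunits and regulators of the anaphase-promoting complex, 1 fell and 1 rose (median 0.06): the conjugating enzyme UBE2S was at -0.19 and FBXO5 (EMI1), an inhibitor of the complex, at 0.40. Of 8 other entry kinases, phosphatases and cyclins, 2 fell and none rose, CCNF at -0.30 and BORA at -0.18, with 1 gene higher at an unadjusted p under 0.05.

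The 13 genes of the DREAM and MYB-MuvB complexes, with the inhibitor gene CDKN1A, had a median of 0.10, with 3 rises and 1 fall. CDKN1A, which encodes the CDK inhibitor p21, was at 34.8 and 34 CPM in the HT29 controls and at 58.8 and 55.1 CPM with PrxII siRNA (log2 fold change 0.73, SE 0.07, adjusted p = 6.55e-07). In SW480 cells it was at 135 and 156 CPM in the controls and at 226 and 229 CPM with PrxII siRNA (log2 fold change 0.64, SE 0.11, adjusted p = 0.0249). The groups do not overlap in either line, and the difference between the lines was 0.09 (SE 0.13, adjusted p = 0.752). TFDP1 was at -0.18 and TFDP2 at 0.26 in HT29 cells. The genes that act before mitosis moved the other way in HT29 cells: of 52 G1/S and DNA replication genes, 27 rose and none fell (median 0.15, against 7.76% of all genes higher), with 1 gene lower at an unadjusted p under 0.05. In 1 fit of all 8 libraries none of the 52 passed in either direction (20 higher and 0 lower at an unadjusted p under 0.05), at a median of 0.16. Among those that rose in HT29 cells by edgeR within the line were DTL (0.41, adjusted p = 3.79e-05), ORC6 (0.40, adjusted p = 0.000312) and MCM7 (0.16, adjusted p = 0.000519).

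In SW480 cells the 54 genes had nearly the same median, -0.21, but few single genes passed the test. Their summed level was 10778 and 9520 CPM in the control libraries and 8713 and 8699 CPM with PrxII siRNA. ANLN, CENPF and HMMR were lower and none was higher, 3 of 54 against a background of 2.08% lower and 1.22% higher of all 14112 genes tested. At an unadjusted p under 0.05, 18 were lower and 0 higher, and DESeq2 called 4 lower and 0 higher, against 3.14% of all genes lower. For 33 genes the PrxII siRNA libraries were both lower than either control (29.0% of all genes), and both were higher for CDC25B, CKS2, PLK1, AURKB, CDCA8 and KIF20A (29.6% of all genes), and the groups overlapped for 15.

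The 3 genes that fell in SW480 cells also fell in HT29 cells, 3 of the 35 called there. CENPF was at 602 and 520 CPM in the SW480 controls and at 334 and 327 CPM with PrxII siRNA (log2 fold change -0.76, SE 0.10, adjusted p = 0.0099). HMMR was at 227 and 159 CPM and at 112 and 108 CPM (log2 fold change -0.81, SE 0.16, adjusted p = 0.0346). ANLN was at 641 and 553 CPM and at 403 and 403 CPM (log2 fold change -0.57, SE 0.10, adjusted p = 0.0268). Each of these genes has both PrxII siRNA libraries below both controls, and the first control library is the higher of the controls for each. All 3 calls were lost without either SW480 PrxII siRNA library, which leaves 1 library in that group (adjusted p from 0.114 to 0.453), and with limma on log2(TPM + 0.1) (adjusted p from 0.0526 to 0.0917), while the fold changes stayed between -0.83 and -0.47. NUF2, at 58.3 and 35.3 CPM in the controls and at 29.8 and 28.3 CPM with PrxII siRNA, had the third largest fold change but did not pass (log2 fold change -0.68, SE 0.21, adjusted p = 0.106; -0.45 and 0.0427 after the GC correction described below).

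The other genes showed the spread between the SW480 controls. TOP2A was at 1292 and 990 CPM in the SW480 controls and at 941 and 972 CPM with PrxII siRNA (log2 fold change -0.25, SE 0.12, adjusted p = 0.225). CDK1 was at 167 and 135 CPM and at 124 and 130 CPM (log2 fold change -0.25, adjusted p = 0.264). For both, the second control library lay close to the PrxII siRNA libraries. Without the first control their log2 fold changes were -0.05 and -0.09, and after the GC correction -0.02 and 0.04. CCNB1 was at 288 and 267 CPM in the controls and at 254 and 254 CPM with PrxII siRNA (log2 fold change -0.13, adjusted p = 0.456). CDC20 was at 120 and 154 CPM and at 139 and 134 CPM, so that the controls enclose the PrxII siRNA libraries (log2 fold change 0.00, SE 0.13, adjusted p = 0.988). The largest fold changes above 0 were those of PLK1 (0.20), ESPL1 (0.15) and INCENP (0.14), with adjusted p-values of 0.28, 0.497 and 0.523.

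The SW480 fold changes followed the GC content of the transcripts. Across the 54 genes, whose GC content ran from 34.3% to 59.5%, Spearman's rho of the log2 fold change with GC was 0.78, against 0.53 across 13720 genes tested; these are descriptions across genes that share the same 4 libraries. The 14 mitotic genes under 40% GC had a median of -0.35 and the 8 genes over 55% GC a median of 0.12, while all genes in those ranges had medians of -0.24 and 0.21. In HT29 cells the same rho was 0.11 over the 54 genes, and the medians in the lowest and highest range were -0.27 and -0.29. After a correction for GC content, 8 of the 54 genes were lower in SW480 cells (ANLN, CDC25C, CENPF, HMMR, KIF2C, NUF2, PBK and TACC3) and none higher, against 8.86% lower and 7.38% higher of all genes, and the median was -0.08. In HT29 cells 39 were lower after the same correction, and none higher, against 11.7% and 9.86% of all genes, with a median of -0.23. Without the first SW480 control library, 17 of the 54 were lower and PLK1 was higher (median -0.09), against 13.1% and 11.4% of all genes. Without the second, 37 were lower and 7 higher (median -0.31), against 26.8% and 26.0% of all genes. In the GC-corrected fit the log2 fold changes of ANLN, CENPF and HMMR were -0.37, -0.57 and -0.56.

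A test of the interaction between cell line and siRNA, fitted on the 8 libraries, called 2 of the 54 genes lower, that is with a more negative effect in HT29 than in SW480 cells, and none higher (2 higher and 12 lower at an unadjusted p under 0.05, and 0 higher and 2 lower with DESeq2, where 1.04% of all genes were lower), against 0.508% lower and 0.616% higher of 14772 genes. KIF20A, which fell most in HT29 cells, was at 107 and 109 CPM in the SW480 controls and at 114 and 113 CPM with PrxII siRNA (log2 fold change 0.08, SE 0.10, adjusted p = 0.675), and the difference was -1.05 on the log2 scale (adjusted p = 0.00215). PLK1 was at 102 and 107 CPM in the SW480 controls and at 117 and 123 CPM with PrxII siRNA, and the difference was -0.60 (adjusted p = 0.0459). The PLK1 call was lost without any 1 of the 4 HT29 libraries or the 2 SW480 PrxII siRNA libraries and with limma on TPM: without 1 of those 6 libraries the adjusted p lay between 0.154 and 0.286, and with limma on TPM it was 0.0629 or 0.0848. The KIF20A call was lost without the first or the second HT29 PrxII siRNA library (adjusted p = 0.0515 and 0.0518), with the difference at -1.04 and -1.05. GTSE1, INCENP and UBE2C came next, at -0.61, -0.54 and -0.36, and did not pass (adjusted p = 0.0661, 0.1 and 0.144). The differences of ANLN, CENPF and HMMR were 0.05, 0.30 and 0.28, with adjusted p-values of 0.837, 0.174 and 0.445. The median difference over the 54 genes was -0.06. After the GC correction the median was -0.17 and 14 genes were lower and none higher, against 3.20% lower and 3.34% higher of all genes: CCNB1, CCNA2, CKS2, PLK1, AURKA, BUB1, UBE2C, INCENP, KIF20A, CENPE, DLGAP5, ASPM, GTSE1 and TOP2A. Without the first SW480 control library the median difference was -0.17, and without the second it was 0.02. Each of these fits leaves 1 library in that group.

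The G1/S genes and the 107 further genes showed few calls in SW480 cells, where 1.22% of all genes were higher and 2.08% lower. Of 52 G1/S genes 1 rose (RPA1, 0.47, adjusted p = 0.0482) and none fell. At an unadjusted p under 0.05, 11 were lower, and the median was -0.12. After the GC correction 1 rose and 11 fell, against 7.38% higher and 8.86% lower of all genes. Of the 107 further genes, SKA2 (-0.75, adjusted p = 0.0208) and CDC27 (-0.65, adjusted p = 0.0437) fell and CDKN1A rose, which is near the background.

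Without PrxII depletion, more of the mitotic genes were higher than lower in SW480 against HT29 cells. Cell line, culture medium and any other difference between the libraries of the lines go together here and cannot be told apart. Of the 54 genes, 25 were higher and 6 lower in the SW480 controls, against 35.7% higher and 31.8% lower of 14346 genes, with a median log2 difference of 0.27 (0.04 over all genes). ANLN had the smallest p-value. Within each line it was at 209 and 204 CPM in the HT29 controls and at 641 and 553 CPM in the SW480 controls, and the difference in a fit of the 4 control libraries was 1.43 (SE 0.11, adjusted p = 5.39e-06). PBK, a kinase of mitotic cells, had the largest difference, 2 log2 units (SE 0.17, adjusted p = 1.13e-05), from 15.4 and 17 CPM in HT29 to 78.5 and 60.2 CPM in SW480 cells. AURKB, PTTG1 and CKS2 were higher by 1.19, 1.05 and 1.01 on the log2 scale. The 6 genes lower in SW480 cells were PRC1 (-0.65), CCNB2 (-0.43), BUB1B (-0.38), TACC3 (-0.38), MKI67 (-0.37) and PLK1 (-0.30). Without the first or the second HT29 control, 14 and 15 genes were higher, against 28.1% and 27.8% of all genes, which is near the background, and 1 was lower in each, against 22.2% of all genes. Without the first SW480 control 32 were higher and 11 lower, against 37.3% and 37.7% of all genes, and without the second 42 were higher and 7 lower, against 38.0% and 39.4%.

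On the TPM scale, which is per transcript length and allows levels of genes to be compared, UBE2C was the highest of the 54 genes in the HT29 controls (306 TPM), followed by CKS2 (278), TOP2A (269), CKS1B (246) and TPX2 (234). The lowest was PBK at 19.2 TPM. In the SW480 controls CKS2 was highest (614 TPM), followed by PTTG1 (447), TOP2A (436), UBE2C (376) and TPX2 (351), and CENPE was lowest at 31.3 TPM. These are means of 2 libraries, and the first SW480 control library adds to the spread of the low-GC genes among them.

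**Figure D3:**
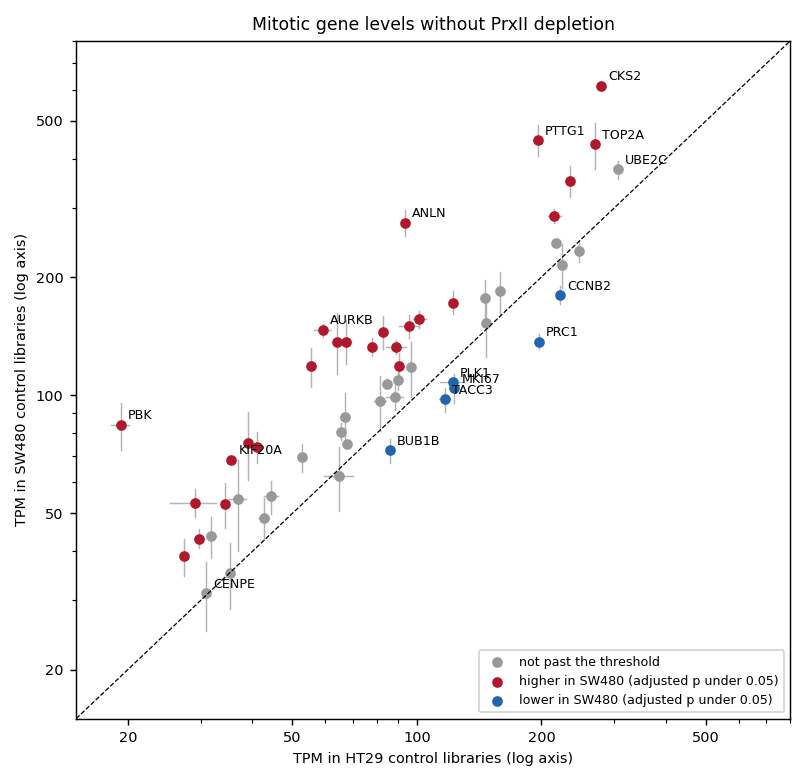
Level of the 54 mitotic genes in the control libraries, in TPM on log axes, HT29 on the x axis and SW480 on the y axis; points are means of 2 libraries, grey lines run between the duplicates, and the dashed line marks equal levels. Red points (25 genes) were higher and blue points (6 genes) lower in SW480 cells at an adjusted p under 0.05, and PBK and ANLN lie farthest above the line.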

How the data were processed

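Messenger RNA was measured in 8 libraries, grouped by the sample labels. Read pairs had been mapped to hg19 by the authors using MapSplice, and RSEM gave the deposited expected counts per refGene symbol. The authors also deposited TPM, used here for levels and as an alternative scale, and FPKM, not used here. The processing notes with the samples also name FastQC and DESeq2.

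Expected counts were rounded and tested with edgeR 4.0.16 in R 4.3.3 (glmQLFit and glmQLFTest, TMM, Benjamini-Hochberg adjustment over all genes tested, threshold 0.05) within each line, leaving out genes that did not reach 10 counts in 2 or more libraries. The difference between lines and the comparison of the controls each had a fit of their own libraries. Alternatives were RLE normalization, no filter, DESeq2 1.42.0 on the filtered genes, a replicate block, all 8 libraries, limma 3.58.1 on the log2 of TPM with a pseudocount of 1 or 0.1, a GC correction (loess, span 0.5, as an offset, for the 85.4% of symbols with a transcript GC content) and leaving out each library. With 1 library left in a group, that library is assumed to vary like the others. The labels do not say whether same-numbered libraries shared anything beyond the number.

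The genes, lists and tests were chosen with earlier results of these data known. Genes were named by role, and by the 3 largest rises and falls per line and the 5 smallest p-values between lines and between controls; the listed genes outside the 54 are the 3 with the smallest p per list. Coordinates are GRCh37 (the assembly of hg19); promoter windows are RefSeq on GRCh38.p14. The fits were run on simulated counts with known changes, which had the same spread in both lines and no GC trend. Those counts do not stand for the first SW480 control library.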

Additional observations from a re-analysis of the deposited data

Results flagged for a closer look

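The effect of PrxII siRNA differed between the lines for KIF20A and PLK1 by the test of the difference itself. For KIF20A the log2 fold change in HT29 minus that in SW480 cells was -1.05 (adjusted p = 0.00215), with both PrxII siRNA libraries below both controls in HT29 and above both in SW480 cells. The adjusted p ranged from 3.77e-08 to 0.0518 over the alternatives. For PLK1 the difference was -0.60 (adjusted p = 0.0459), with the same arrangement of the libraries, and the adjusted p ranged from 2.92e-05 to 0.286. Both genes overlap another measured gene and the library kit did not mark the strand; the part of those reads in the result was not tested.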

How the results depend on the processing

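The median of the 54 genes in HT29 cells stayed below 0 in every setting run, while the number of calls depended on the setting in both lines. Over all genes, the HT29 count of 2279 became 871 with DESeq2 and 185 with all 8 libraries (1574 to 2030 without 1 library), and limma on log2(TPM + 1) split it into 1252 higher and 548 lower, against 1006 and 1273. The SW480 count of 466 became 1727 with the replicate block, 2415 with all 8 libraries, 214 and 177 with limma (pseudocount 1 and 0.1), 2227 with the GC correction, 2973 with that and the block, and 87 to 7364 without 1 library. The count for the difference, 166, became 267 with no filter, 311 with DESeq2, 103 and 43 with limma, 938 and 930 with the GC correction without and with the block, and 6 to 5237 without 1 library; between controls it was 6905 to 9970, against 9681.

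Of the 54 genes, 9 fell in HT29 cells with all 8 libraries, against 35, where 0.670% and 9.82% of all genes were lower. The HT29 median was -0.15 with limma, where the median of all genes moved to 0.06, and -0.25 to -0.21 without 1 library. In SW480 cells 6 fell with the block, 14 with all 8 libraries, 1 and 0 with limma, 8 with the GC correction and 9 with that and the block, against 3 (0 to 37 without 1 library). Those higher numbered 1 with the GC correction and the block and 0 to 7 without 1 library. The SW480 median was -0.08 in both GC-corrected fits, -0.12 with limma, where the median of all genes moved to 0.08 or 0.09, and -0.31 to -0.09 without 1 library. For the difference, 1 was lower with either limma fit, 14 with the GC correction and 13 with that and the block, against 2 (0 to 19 lower and 0 to 16 higher without 1 library), and the median was -0.17 in both GC-corrected fits and -0.17 to 0.02 without 1 library, above 0 only without the second SW480 control. Between controls, 2 were lower with either limma fit and 11 with the GC correction, against 6 (1 to 11 without 1 library, with 14 to 42 higher), and the median was 0.39 with limma, where that of all genes moved to 0.15 or 0.16, and 0.23 to 0.42 without 1 library.

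Over the 54 genes and the 4 comparisons, 7 values turned with a call. CDC20 in SW480 cells was at -0.18 without the first SW480 control and 0.19 without the second. In the difference, TOP2A was at -0.20 with the GC correction and at -0.16 and 0.21 without the first and the second SW480 control, and KIF20B at -0.28 and 0.26. Between controls, KIF20B was at -0.35 and 0.18, CENPE at -0.35 and 0.22 and ECT2 at -0.26 and 0.24 without the first and the second SW480 control. Same-numbered libraries deviated together only weakly (r = 0.10 and 0.11 in HT29 and SW480), and among the 54 genes the replicate block ended no call and added 3 in each line and none in the difference. Apart from the construction of each setting (fewer libraries or a shared spread), the cause was not tested. Precision is limited by 2 libraries per group and by the first SW480 control.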
